A study of Homo sapiens with 12 samples.

Results

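The replication-dependent histone genes of the human genome lie in clusters, and their symbols in the count files begin with HIST1H, HIST2H, HIST3H or HIST4H after the cluster they belong to. All symbols with these beginnings were taken, which gave 73 genes of the 23710 in the files. By the family in their symbols, 6 were H1 linker histone genes, 18 were H2A, 20 were H2B, 14 were H3 and 15 were H4. The symbol alone does not say whether a gene encodes a protein. By cluster, 56 belonged to HIST1, 13 to HIST2, 3 to HIST3 and 1 to HIST4.

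The libraries were made from RCC4, an established human line of clear cell renal carcinoma, to ask how the transcriptome responded when MESH1 (gene symbol HDDC3), an NADPH phosphatase, was silenced. Cells received 40 pmol of siRNA and were collected after 72 hours. In experiment 1, 3 libraries of cells given siMESH1-CDS, an siRNA against the coding sequence, stood beside 3 given the non-targeting siNT. In experiment 2, 3 libraries of siMESH1-7002, against the 3′ untranslated region, stood beside 3 siNT libraries of their own. All groups were of the same line and transfected with the same lipid reagent, so the intended difference of each group from its control was the siRNA. Each siRNA was used in 1 experiment only. In experiment 1 the siNT libraries ran in lanes 4, 5 and 6 and the siMESH1-CDS libraries in lanes 6, 7 and 4. The titles call the libraries biological replicates of a single line, without saying what was kept separate between them, so p-values measure the spread between these libraries.

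Histones package DNA into nucleosomes, each built of H2A, H2B, H3 and H4, with H1 on the linker. Cluster histone genes are transcribed mainly in S phase, when new DNA is packaged. Most of their mRNAs end just past a stem-loop that the protein SLBP binds, and carry no poly(A) tail. Some cluster genes also make polyadenylated mRNAs that run past the stem-loop, above all in cells that no longer divide. The library kit used here selects poly(A) RNA, so the reads describe the polyadenylated share of histone mRNA and not its total.

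The stem-loop was read from the transcripts of GENCODE release 29 (GRCh38), as the pattern GGNNNTNNNNANNNCC with a perfectly paired stem of 6 bases. It was found in the annotated transcripts of 31 of the 73 genes (42.5%), against 2.65% of the 19598 protein-coding genes without a HIST name. Many of the others are annotated only to the end of the coding sequence, so a missing match says nothing of the mRNA. The 31 genes carried 5 versions of the element. They are shown because most mRNAs of cluster histone genes end just past this element, although the pattern also matched 519 genes without a HIST name. Each stands with 5 bases on each side, the paired stem in capitals and the loop in lower case between its arms. The letters are DNA, from 5′ to 3′.

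HIST2H2BE: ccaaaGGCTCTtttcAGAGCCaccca
HIST1H2BD: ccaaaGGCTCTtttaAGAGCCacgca
HIST1H3E: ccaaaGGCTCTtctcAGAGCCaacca
HIST1H4H: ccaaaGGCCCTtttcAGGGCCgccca
HIST1H4I: aaaaaGGCCCTttttAGGGCCcctaa

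The version of HIST2H2BE stood in 17 genes, among them HIST1H2AC, HIST1H3H and HIST3H2A. That of HIST1H2BD stood in 5 genes, that of HIST1H4H in 5 H4 genes and that of HIST1H4I in 3 H4 genes. HIST1H3E was the single gene with its version, which differs in the loop. In RefSeq windows of GRCh38.p14 from 250 bases before to 50 after the start, 65 of the 73 genes had an entry, matched by symbol and position. Searched on both strands, TATAAA stood in 67.7% of the 65, against 14% of 27305 genes, CCAAT in 84.6% against 39.7%, and the octamer ATTTGCAT in 40% against 2.19%. These matches describe the letters and are not sites of binding.

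Reads in genes ran from 34063155 to 49134129 per library in experiment 1 and from 24787804 to 31651125 in experiment 2. Reads with more than 1 alignment were left uncounted, and their share was 9.98% to 12.6% per library in the first experiment and 23.6% to 27.1% in the second. Replicates spread more in the first (edgeR's biological coefficient of variation 0.299) than in the second (0.0490), so the same change had a larger error there. Chi-square per degree of freedom between replicates was 68.9 to 291 among siMESH1-CDS libraries and 2.29 to 15.8 in the other groups. In experiment 1, reads outside any feature were 14.7% to 15.5% with siNT and 18.4% to 20.8% with siMESH1-CDS. Reads that did not align were 5.31% to 16.2% with siNT and 2.51% to 3.21% with siMESH1-CDS. HDDC3, the targeted gene, had 438, 292 and 361 reads with siNT and 5, 0 and 11 with siMESH1-CDS, and it had 442, 326 and 358 with siNT and 36, 35 and 52 with siMESH1-7002. VIM, a mesenchymal marker of the line, stood at 3400 to 5950 counts per 1000000 reads (CPM) and the renal factor PAX8 at 31.2 to 479 CPM. Of 6 markers of other cells, PECAM1, CD3E and HBB had no read, PTPRC and LUM stayed at or below 0.0355 CPM, and PDGFRB reached 0.851 CPM. The renal carcinoma markers CA9, KRT18 and NDUFA4L2 had their lowest values, 1.53, 0.286 and 0.078 CPM, in siMESH1-CDS libraries. The markers did not all move this way. CDH2 rose from a mean of 537 to 1660 CPM with siMESH1-CDS (log2 1.63, adjusted p = 0.000212, edgeR), and VIM had a log2 change of -0.01. PAX8 and PAX2 had log2 changes of -1.53 and -1.57.

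Most cluster histone genes had few reads in these libraries. No read was counted for 17 of the 73 genes in any of the 12 libraries, among them the H1 genes HIST1H1A, HIST1H1B and HIST1H1T and the near-identical pairs HIST2H2AA3 and HIST2H2AA4, HIST2H3A and HIST2H3C, and HIST2H4A and HIST2H4B. Another 18 genes had at most 3 reads in every library, 15 had a highest library of 4 to 9 reads, and 23 reached 10 reads in some library. Summed over all 73, the siNT libraries held 363, 408 and 379 reads in experiment 1 and 1257, 969 and 1152 in experiment 2.

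Near-identical copies bear on these zeros, since reads of 50 bases that fit 2 genes were not counted. In 17 of the 73 genes, at least 50% of all 50-base windows of the transcripts also occur, on either strand, in another annotated gene. Of the 17, 8 had no read, and of the 31 genes that share no window, 8 also had no read. Not all of the 17 are copies, since HIST1H2AD, HIST1H2AK, HIST1H2AM and HIST1H3D overlap the annotated gene with which they share most windows. HIST1H2BK, which had most reads of all, shares 74.1% of its annotated windows, mostly with H2BFS, and its annotated transcript of 381 bases holds the coding sequence alone. Its counts, and those of HIST1H2AI (62.3% shared, mostly with HIST1H2AJ), leave out reads that fit both genes and may be too low. HIST1H2AK (100% shared) overlaps HIST1H2BN on the other strand, and how reads there were assigned is not known.

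The genes with most reads were few. Over the 12 libraries HIST1H2BK had the highest mean at 15.2 CPM, followed by HIST1H1C at 6.68, HIST1H2BD at 6.20 and HIST1H2AC at 3.94. These CPM were not divided by length and rank reads, not molecules. Genes whose annotated transcript runs over 200 bases past the stem-loop (21 genes) had a median of 55 reads over the 12 libraries, those with 200 bases or fewer (10 genes) a median of 29, and those with no stem-loop in the annotation (42 genes) a median of 8. The 2 genes with most reads, HIST1H2BK and HIST1H1C, both belong to the last class.

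**Figure D1:**
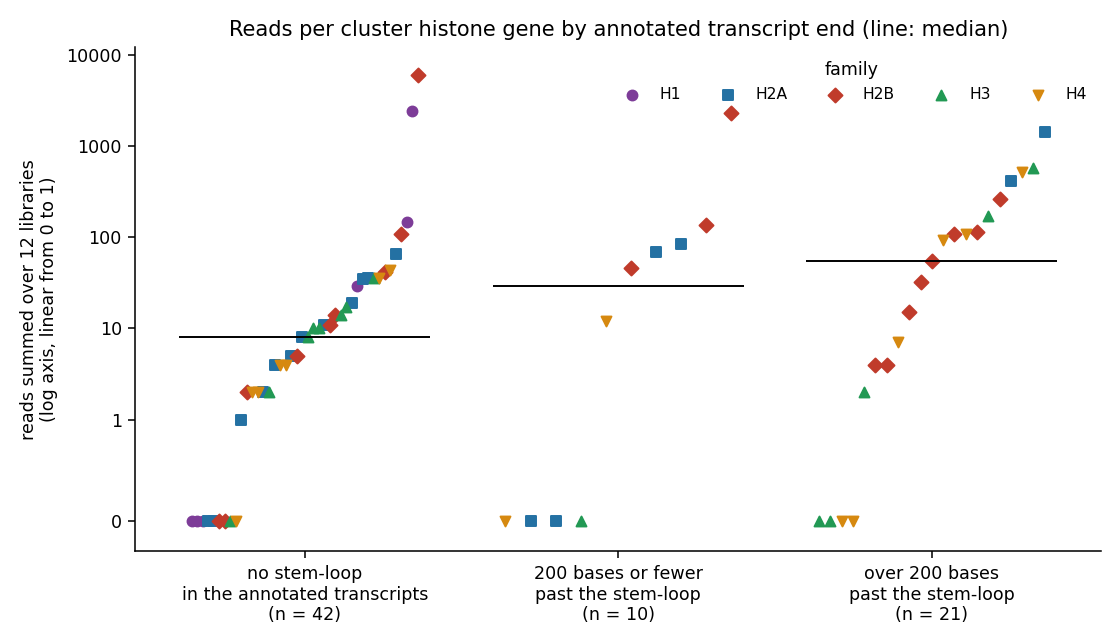
Reads summed over all 12 libraries (log axis, linear from 0 to 1) for each of the 73 cluster histone genes, grouped by how far the longest annotated stem-loop transcript runs past the element, with a symbol for each histone family and a line at the class median. The medians are 8, 29 and 55 reads from left to right, and each class holds genes with no read as well as genes with over 1000.

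With siMESH1-CDS, 4 of the 8 cluster genes with enough reads to be tested were higher than with siNT and 1 was lower. Across all 13395 genes tested, 36.9% were called higher and 37.2% lower. The genes that rose were 3 of the H2B family, HIST1H2BK, HIST1H2BD and HIST2H2BE, and the H3 gene HIST1H3E, by 4.37-fold to 9.35-fold. HIST1H1C, a linker histone gene, fell, a call that did not hold with an offset for GC content. The median log2 change of the 8 was 1.48, against -0.05 for all genes tested, but a gene low in siNT could enter the test through its siMESH1-CDS libraries, as HIST1H3E and HIST2H2BE did, so this median describes the 8 and not the 73. In bulk RNA, fewer cells that express a gene and less of its RNA per cell cannot be told apart.

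HIST1H2BK (chr6:27146418-27146798, minus strand, GRCh38) encodes an H2B whose mRNA is known to occur with a poly(A) tail. It had 166, 159 and 131 reads with siNT and 987, 1435 and 692 with siMESH1-CDS, or 3.15 ± 0.354 and 29.5 ± 8.83 CPM (SD, n = 3). All siMESH1-CDS libraries lay above all siNT libraries, and the siMESH1-CDS libraries also differed most among themselves. The log2 fold change was 3.22 (SE 0.285, adjusted p = 0.000403 by the edgeR quasi-likelihood test with Benjamini-Hochberg adjustment), and it was 5.61 with an offset for GC content. That offset rests on the GC content of the annotated coding sequence alone, which may differ from that of the RNA counted. In siMESH1-CDS cells this gene made up 77.8% of all cluster histone reads, against 39.7% with siNT.

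HIST1H3E (chr6:26224199-26227473, plus strand, GRCh38) encodes the core histone H3.1. Its longest annotated transcript of 2679 bases runs 1862 bases past the stem-loop printed above, with the poly(A) signal AATAAA in the last 50. It had 6, 5 and 9 reads with siNT and 35, 54 and 35 with siMESH1-CDS, with no overlap between the groups. The log2 fold change was 3.06 (SE 0.331, adjusted p = 0.000653, edgeR). The level rose from 0.139 ± 0.0471 to 1.17 ± 0.207 CPM (SD, n = 3), so the siNT side rests on 20 reads.

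HIST1H2BD (chr6:26158146-26171349, plus strand, GRCh38) also encodes H2B and overlaps the pseudogene LARP1P1 on its strand and AL353759.1 on the other. Its reads rose from 26, 33 and 40 with siNT to 103, 178 and 111 with siMESH1-CDS, again without overlap. This was a log2 fold change of 2.41 (SE 0.303, adjusted p = 0.00102, edgeR).

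HIST2H2BE (chr1:149884459-149886652, minus strand, GRCh38), an H2B gene of the HIST2 cluster whose transcript runs 1729 bases past the stem-loop, had 18, 10 and 23 reads with siNT. With siMESH1-CDS it had 37, 69 and 58, all above the siNT libraries, for a log2 fold change of 2.13 (SE 0.358, adjusted p = 0.00278, edgeR).

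HIST1H1C (chr6:26055787-26056428, minus strand, GRCh38) encodes the linker histone H1.2. It had 64, 75 and 78 reads with siNT and 13, 7 and 22 with siMESH1-CDS, which do not overlap. The log2 fold change was -1.89 (SE 0.442, adjusted p = 0.00959, edgeR), and with the GC offset it was -0.35 (adjusted p = 0.305), so that the fall was no longer called. Its annotated transcript, on which the offset rests, is 57.5% GC, and the RNA counted may differ. The median log2 change of the 3372 tested genes with 55% to 65% GC was -2.54 with siMESH1-CDS. In the lanes that held both groups, the log2 ratio of siMESH1-CDS to siNT was -0.87 in lane 4 and -1.90 in lane 6.

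The other 3 tested genes did not pass. HIST1H2AC had 14, 19 and 13 reads with siNT and 9, 13 and 24 with siMESH1-CDS, a log2 change of 0.45 with a 95% interval from -0.41 to 1.31. HIST1H4H had a log2 change of 0.39 (-0.40 to 1.19) and HIST2H2BC, H2B by its symbol, of 0.82 (-0.66 to 2.31). These intervals leave room for a change of over 2-fold upward.

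The 65 cluster genes with too few reads to be tested in experiment 1 held 51 to 83 reads per siNT library and 12 to 30 per siMESH1-CDS library, or 1.43 ± 0.443 and 0.560 ± 0.279 CPM (SD, n = 3), and 28 of all 73 genes had no read in the 6 libraries. Low genes that rose enter the test and leave this set, so its sum is a description and no contrast with the tested genes. Several genes with reads in siNT had none in any siMESH1-CDS library. HIST1H2BH went from 4, 9 and 5 reads to 0, and was at least 4.34-fold lower, on the CPM scale, when 3 reads over the group are taken as the floor. HIST1H2BJ went from 2, 6 and 5 reads to 0 (at least 3.13-fold), HIST1H4C from 2, 3 and 7 (at least 2.89-fold), HIST1H4E from 2, 6 and 4 (at least 2.89-fold) and HIST4H4 from 2, 1 and 5 (at least 1.93-fold). All but HIST1H2BJ and HIST4H4 were picked here after their values were seen. Fitted without a filter on low counts, 3 of these passed the threshold as lower, HIST1H2BH (adjusted p = 0.0232), HIST1H2BJ (0.0403) and HIST1H4E (0.0434, edgeR). The median GC content of the 65 was 57.9%, against 48.3% for the genes tested, and 38 of them lie in the window of 55% to 65%. The 5 genes named above as falling to 0 are not among those 38. Their annotated GC content was 41.6% for HIST1H2BH, 50.4% for HIST1H2BJ, 49.7% for HIST1H4C, 45.8% for HIST1H4E and 51.2% for HIST4H4. The part of GC content in the low counts of the 65 as a set was not tested.

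With siMESH1-7002, 8 of 17 tested cluster genes were higher than with siNT and 0 were lower. Across all 13568 genes tested, 26.6% were called higher and 26.7% lower. By edgeR, 0 of the 17 were lower at an unadjusted p under 0.05 as well, and DESeq2 called 7 higher and 0 lower. The genes that rose came from all 5 families: the linker histone gene HIST1H1C, the H2A genes HIST1H2AC and HIST1H2AI, the H2B genes HIST1H2BK and HIST1H2BD, the H3 genes HIST1H3E and HIST1H3H, and the H4 gene HIST1H4H. Their changes ran from 1.85-fold to 3.54-fold, and the median log2 change of the 17 was 0.56, against 0.01 for all genes tested. HIST1H2AI, low in siNT, could be tested through its siMESH1-7002 libraries, so these counts and the median describe the 17 alone.

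HIST1H2AC (chr6:26124145-26139116, plus strand, GRCh38) had the largest change of the 17. It had 99, 89 and 91 reads with siNT and 320, 339 and 379 with siMESH1-7002, or 3.31 ± 0.238 and 11.7 ± 0.735 CPM (SD, n = 3). The log2 fold change was 1.83 (SE 0.104, adjusted p = 2.55e-10, edgeR). Its transcript runs 1128 bases past the stem-loop and ends with AATAAA in the last 50 bases.

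HIST1H3E rose with this siRNA too. It had 32, 21 and 39 reads with siNT and 101, 105 and 128 with siMESH1-7002, without overlap, and a log2 fold change of 1.79 (SE 0.181, adjusted p = 3.46e-07, edgeR). The other H3 gene tested, HIST1H3H (chr6:27810064-27811300, plus strand, GRCh38), went from 17, 10 and 16 reads to 42, 36 and 37, a log2 change of 1.35 (SE 0.241, adjusted p = 0.000169, edgeR).

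Both H2B genes with many reads rose. HIST1H2BK had 294, 185 and 238 reads with siNT and 599, 553 and 605 with siMESH1-7002. HIST1H2BD had 193, 171 and 170 and then 392, 439 and 421. Neither gene's groups overlapped, and the log2 changes were 1.23 (SE 0.0878) for HIST1H2BK and 1.16 (SE 0.0890) for HIST1H2BD, with adjusted p of 4.52e-09 and 1.20e-08 (edgeR).

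The linker histone gene HIST1H1C, lower with siMESH1-CDS before the GC offset, was higher with siMESH1-7002. It had 271, 221 and 229 reads with siNT and 477, 493 and 474 with siMESH1-7002, a log2 change of 0.94 (SE 0.0794, adjusted p = 4.22e-08, edgeR). It was the single cluster gene called in opposite directions by the 2 siRNAs. HIST1H1E, the other linker gene tested, had 21, 13 and 32 reads with siNT and 26, 29 and 18 with siMESH1-7002, and its log2 change of 0.08 had an interval from -0.51 to 0.67.

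Of the H4 genes, HIST1H4H rose from 69, 44 and 40 reads to 107, 98 and 91 (log2 0.89, SE 0.168, adjusted p = 0.000281, edgeR). HIST1H4E (log2 0.56, -0.17 to 1.30) and HIST4H4 (0.20), a lone H4 gene outside the larger clusters, did not pass. HIST1H2AI rested on 4, 7 and 6 reads against 15, 11 and 15 (log2 1.19, SE 0.394, adjusted p = 0.0178, edgeR). Its call was lost when siMESH1-7002 replicate 1 or 3 or siNT replicate 1 was left out. HIST1H2AI was not named by the rule and was picked to complete the 8.

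HIST3H2A, an H2A gene of the HIST3 cluster, had a higher mean with siMESH1-7002 but overlapping groups. Its reads were 66, 53 and 59 with siNT and 81, 62 and 84 with siMESH1-7002, a log2 change of 0.28 (-0.03 to 0.60). With the GC offset the change was 0.38 and passed (adjusted p = 0.0418, edgeR). In experiment 1 the same gene had 1, 2 and 1 reads with siNT and 1, 0 and 0 with siMESH1-CDS.

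The other genes tested in experiment 2 had log2 changes from -0.36 for HIST1H2AE to 0.53 for HIST2H2BC and did not pass. The 56 not tested, a set that the same filter defines, held 74 to 123 reads per siNT library and 81 to 100 per siMESH1-7002 library, or 3.5 ± 0.749 and 3.05 ± 0.245 CPM (SD, n = 3). Their median GC content was 59.0%, and the median log2 change of tested genes with 55% to 65% GC was -0.07 in this experiment. HIST2H2BE, higher with siMESH1-CDS, was among the 56, with 12, 8 and 7 reads in siNT and 7, 7 and 8 in siMESH1-7002. In a fit without the filter, the H3 genes HIST1H3B (5, 2 and 11 reads, then 1, 2 and 0) and HIST1H3A (7 reads in siNT, then 0) were called lower, at adjusted p of 0.0192 and 0.0411 (edgeR). The same fit called HIST1H2AK higher, from 3, 4 and 2 reads to 15, 9 and 17, a log2 change of 2.08 (adjusted p = 0.00112, edgeR), and HIST1H4I, from 0 to 7 reads in all. These 4 genes were picked after their values were seen.

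**Figure D2:**
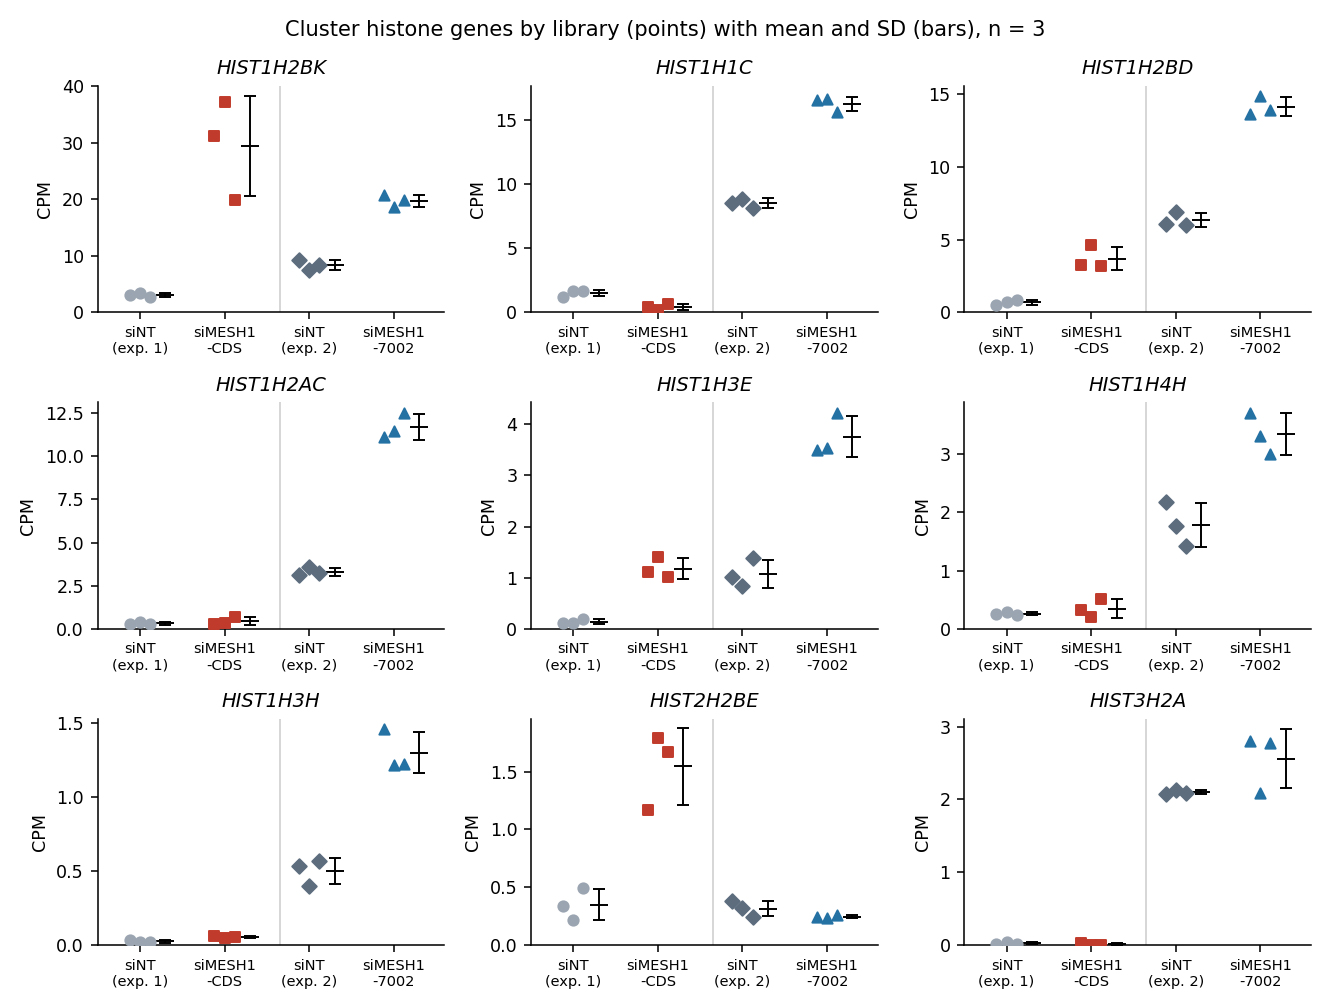
CPM per library (linear axes from 0, scaled by the trimmed mean of M values within each experiment) of 9 cluster histone genes, with the mean and SD of 3 libraries at the right of each group. HIST1H2BK, HIST1H2BD and HIST1H3E are higher with each siRNA than in the siNT of the same experiment, HIST2H2BE is higher with siMESH1-CDS and was not tested with siMESH1-7002, and HIST1H1C falls in the left pair (not called with a GC offset) and rises in the right pair.

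The counts of these genes differed between the siNT libraries of the 2 experiments. The summed level of the 73 genes in siNT cells was 8.0 ± 1.11 CPM in experiment 1 and 39.8 ± 1.01 CPM in experiment 2 (SD, n = 3). HIST1H2AC had 0.321 ± 0.0867 CPM in the first and 3.31 ± 0.238 in the second. HIST3H2A had 4 siNT reads in all in the first and 178 in the second. The share of reads with more than 1 alignment also differed between the experiments, as given above, and what separates the siNT groups cannot be told apart here.

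The sum over all 73 genes was 37.9 ± 9.03 CPM with siMESH1-CDS, 4.74 times its siNT, and 80.9 ± 0.693 CPM with siMESH1-7002, 2.03 times its siNT. These sums were followed further in 8 genes whose mRNAs are known from general knowledge to be found polyadenylated: HIST1H1C, HIST1H2AC, HIST1H2BC, HIST1H2BD, HIST1H2BJ, HIST1H2BK, HIST2H2BE and HIST4H4. Their sum went from 6.35 ± 0.607 to 35.6 ± 9.02 CPM with siMESH1-CDS and from 28 ± 0.794 to 63.4 ± 0.3 CPM with siMESH1-7002. The first of these rises lay mostly in HIST1H2BK, whose counts leave out reads that fit another gene. Without it, a choice made after seeing the data, the other 7 genes went from 3.2 ± 0.567 to 6.14 ± 0.930 CPM with siMESH1-CDS. With siMESH1-7002 these 7 went from 19.7 ± 1.12 to 43.7 ± 0.907 CPM. The sum over the 72 cluster genes other than HIST1H2BK was 1.74 times its siNT with siMESH1-CDS and 1.95 times with siMESH1-7002. In experiment 1 these 72 held 694 reads with siNT and 888 with siMESH1-CDS. Of these, HIST1H2BD held 99 and 392, HIST2H2BE 51 and 164 and HIST1H3E 20 and 124, while HIST1H1C held 217 and 42. The other 65 genes together went from 1.64 ± 0.510 to 2.27 ± 0.0651 CPM, on 60 to 97 and 74 to 85 reads per library, and from 11.8 ± 1.69 to 17.5 ± 0.458 CPM. The first of these sums rose through HIST1H3E, which held 20 of 234 reads with siNT and 124 of 238 with siMESH1-CDS. It is no rise of the 65 genes in general. Of the 8, 5 were tested with siMESH1-CDS, and edgeR called 3 higher and 1 lower, beside 36.9% and 37.2% of all genes. With siMESH1-7002, 6 were tested, and 4 were called higher and 0 lower, beside 26.6% and 26.7% of all genes. HIST2H2BE could enter the first test through its siMESH1-CDS libraries. The untested HIST1H2BC, HIST1H2BJ and HIST4H4 had fewer reads in sum with siMESH1-CDS than with siNT. The first counts therefore describe the 5 tested genes and not the 8. HIST1H2BC had 11, 8 and 7 reads and then 0, 0 and 6 in experiment 1, and 19, 15 and 13 and then 18, 18 and 22 in experiment 2.

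**Figure D3:**
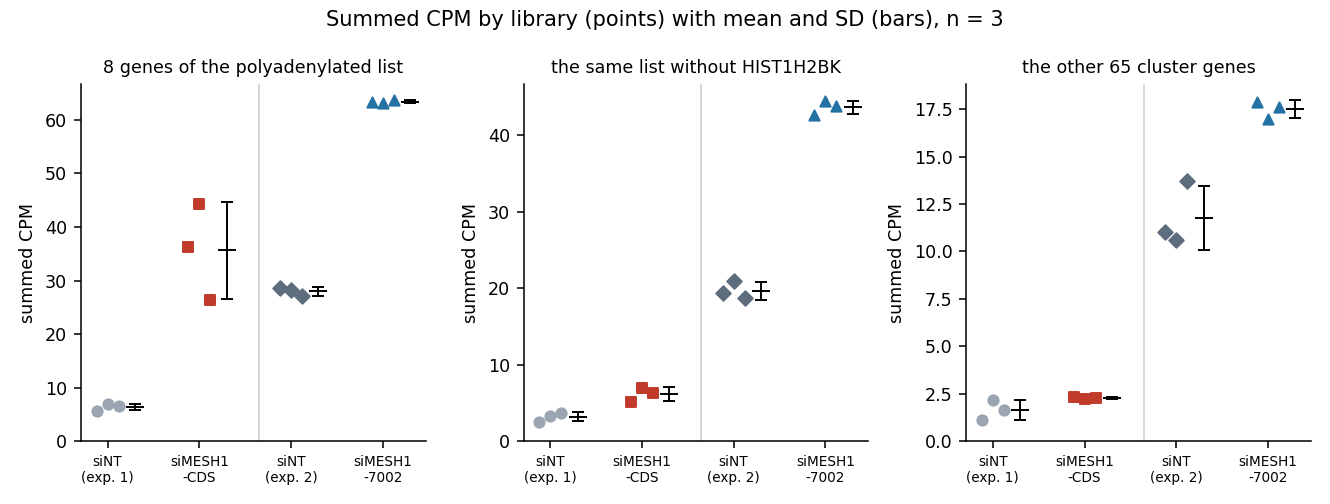
Summed CPM per library (linear axes from 0) of the 8 genes of the polyadenylated list, of the same list without HIST1H2BK and of the other 65 cluster genes, with the mean and SD of 3 libraries. With siMESH1-CDS the mean of the first sum goes from 6.35 to 35.6 CPM and that of the second from 3.2 to 6.14 CPM.

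By family, the H2B genes took up most of the sum in experiment 1, with 4.90 ± 0.420 CPM in siNT and 35.2 ± 9.43 with siMESH1-CDS, again mostly HIST1H2BK. The H1 genes had 1.61 ± 0.325 and 0.429 ± 0.240, the H2A genes 0.570 ± 0.212 and 0.626 ± 0.243, the H3 genes 0.387 ± 0.144 and 1.25 ± 0.190, and the H4 genes 0.530 ± 0.102 and 0.368 ± 0.155. In experiment 2 the H1 sum went from 9.39 ± 0.148 to 17.2 ± 0.794 CPM, H2A from 6.89 ± 0.453 to 16.1 ± 1.27 CPM, H2B from 18 ± 0.611 to 37.4 ± 0.379, H3 from 2.13 ± 0.754 to 5.27 ± 0.304, and H4 from 3.33 ± 0.0404 to 4.96 ± 0.239. In experiment 2 the read sums of the siNT and siMESH1-7002 libraries did not overlap in any of the 5 families. Single genes held much of these sums, which therefore do not show a rise across each family. HIST1H1C held 721 of 796 H1 reads with siNT and 1444 of 1527 with siMESH1-7002. HIST1H2AC held 279 of 582 and then 1038 of 1429 H2A reads. HIST1H3E held 92 of 182 and 334 of 468 H3 reads, and HIST1H4H 153 of 283 and 296 of 440 H4 reads. No test was run on these sums, whose members share clusters and sequence.

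Cluster genes often stand in divergent pairs, and 13 such pairs start within 1000 bases of each other. HIST1H2AC and HIST1H2BC start 219 bases apart, and over 3 libraries HIST1H2AC went from 279 to 1038 reads with siMESH1-7002 while HIST1H2BC went from 47 to 58. HIST1H2BK and HIST1H2AH start 331 bases apart, with 717 and 1757 reads for the first and 4 and 2 for the second in experiment 2. HIST2H2BE and HIST2H2AC start 323 bases apart, with 51 and 164 reads for the first and 7 and 0 for the second in experiment 1. The other experiment differed for 2 of these pairs. In experiment 1 HIST1H2AC had 46 reads in each group, while HIST1H2BC went from 26 to 6. In experiment 2 HIST2H2BE had 27 and 22 reads and HIST2H2AC 7 and 5. HIST1H2BK rose in experiment 1 too, from 456 to 3114 reads, beside 2 and 0 for HIST1H2AH. In each of these 3 pairs, which were picked after their values were seen, 1 partner held most of the reads.

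The 2 changes were then compared in a model of all 12 libraries. Of the 19 cluster genes tested there, 9 differed between siMESH1-CDS and siMESH1-7002, against 69.7% of all 14154 genes. The change with siMESH1-CDS was larger by a log2 difference of 2.33 for HIST2H2BE (SE 0.478, adjusted p = 0.00155, edgeR), 1.83 for HIST1H2BK (SE 0.283, adjusted p = 0.000265) and 1.11 for HIST1H2BD (SE 0.271, adjusted p = 0.00416). The difference had the other sign for HIST1H1C (-2.98, SE 0.360, adjusted p = 5.72e-05) and HIST1H2AC (-1.51, SE 0.383, adjusted p = 0.00525). With the GC offset the difference of HIST1H1C was -1.52 (adjusted p = 0.000243) and that of HIST1H2BK 4.06 (adjusted p = 0.000152).

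For HIST1H3E the difference was 1.12 (SE 0.371, adjusted p = 0.0204, edgeR). It did not pass without siNT replicate 1 or 2 of experiment 1 (adjusted p = 0.0661 and 0.0582), without siNT replicate 3 of experiment 2 (0.051), or with offsets for GC content and length (0.0513). The remaining 3 calls, HIST1H2BH, HIST1H4E and HIST4H4, rest on siMESH1-CDS libraries that are all at 0, so their fitted differences depend on the prior count and are no bounds. HIST1H4H had a difference of -0.65 (adjusted p = 0.177), which did not pass.

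**Figure D4:**
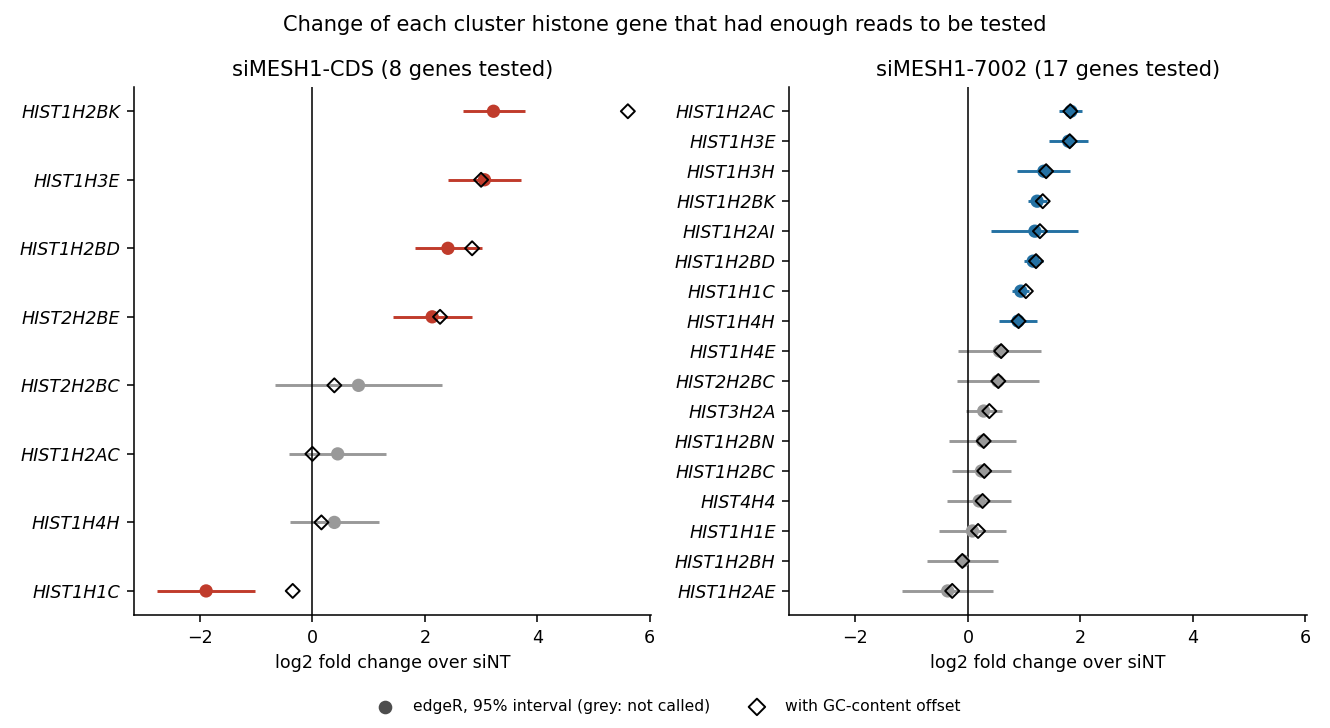
Log2 fold change over siNT of each cluster histone gene that could be tested, with 95% intervals (coloured where called, grey where not) and, as open diamonds, the change with an offset for GC content. HIST1H2BK moves from 3.22 to 5.61 and HIST1H1C from -1.89 to -0.35 with the offset in the left panel, while the diamonds lie on or near the points in the right panel. GC content is that of the annotated transcripts, which may differ from the RNA counted.

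Replacement histones, whose genes lie outside the clusters and whose mRNAs are for the most part polyadenylated, were described from a list of 12. Of the 11 tested, 1 was higher and 9 were lower with siMESH1-CDS (median log2 -1.63), and 1 was higher and 6 were lower with siMESH1-7002 (median -0.35), beside all-gene shares of 36.9% higher and 37.2% lower in the first experiment and 26.6% and 26.7% in the second. With the GC offset the counts for siMESH1-CDS were 2 higher and 6 lower, with a median of -0.97. CENPA, the H3 variant of centromeres, had 904, 798 and 711 reads with siNT and 159, 243 and 166 with siMESH1-CDS, a log2 change of -1.63 (SE 0.187, adjusted p = 0.000768, edgeR). With siMESH1-7002 it went from 241, 184 and 166 reads to 27, 33 and 51, a change of -2.47 (SE 0.176, adjusted p = 4.56e-09). The variants H2AFZ and H2AFY fell as well, by log2 -1.67 and -1.55 with siMESH1-CDS and -0.54 and -0.82 with siMESH1-7002.

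H2AFX, which marks DNA breaks once phosphorylated, can end its mRNA at a stem-loop or at a poly(A) site. It changed by -2.33 with siMESH1-CDS (adjusted p = 0.0160, edgeR), and by -0.47 with the GC offset (adjusted p = 0.299), and fell by 1.02 with siMESH1-7002 (adjusted p = 1.84e-09). H3F3B, an H3.3 gene, had a log2 change of 0.36 (adjusted p = 0.127) with siMESH1-CDS and rose by 0.17 with siMESH1-7002 (adjusted p = 0.00362). H3F3A, the other H3.3 gene, is listed at 0 in every library. Whether its reads were left uncounted was not tested, so the listing does not show that the gene is silent.

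Of 19 genes for the transcription and 3′ processing of cluster histone mRNA, 4 were higher and 13 lower with siMESH1-CDS (median log2 -0.93), and 1 was higher and 12 were lower with siMESH1-7002 (median -0.23), against 36.9% and 37.2% of all genes with the first siRNA and 26.6% and 26.7% with the second. CDK2, a kinase of S-phase entry, fell by 1.80 on the log2 scale with siMESH1-CDS and fell by 0.56 with siMESH1-7002. Its cyclin partner CCNE2 fell by 3.08 with siMESH1-CDS and fell by 1.92 with siMESH1-7002. SLBP, which binds the stem-loop, fell by 0.51 (SE 0.109, adjusted p = 0.00690, edgeR) with siMESH1-CDS and by 0.46 (SE 0.0585, adjusted p = 5.34e-06) with siMESH1-7002. With the GC offset the SLBP change in experiment 1 was -0.18 (adjusted p = 0.391). NPAT, the coactivator of cluster histone transcription, had a log2 change of -0.57 (adjusted p = 0.0314) with siMESH1-CDS and 0.01 (adjusted p = 0.961) with siMESH1-7002.

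Of 12 genes for cleavage and polyadenylation of other mRNAs, 5 were higher and 3 lower with siMESH1-CDS (median log2 0.16), and 2 were higher and 3 lower with siMESH1-7002 (median 0.00). These counts lie near the shares over all genes, 36.9% higher and 37.2% lower in experiment 1 and 26.6% and 26.7% in experiment 2. With the GC offset the second pair became 5 higher and 4 lower. The poly(A) polymerase gene PAPOLA rose by 1.40 (SE 0.161, adjusted p = 0.000763, edgeR) with siMESH1-CDS and fell by 0.32 (SE 0.0520, adjusted p = 7.74e-05) with siMESH1-7002. NUDT21, a subunit of cleavage factor I that sets the choice of poly(A) site, rose by 1.43 (adjusted p = 0.00124) with siMESH1-CDS and had a log2 change of -0.08 (adjusted p = 0.239) with siMESH1-7002. The part of any of these genes in the reads of the cluster histones was not tested.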

How the data were processed

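RNA of RCC4 cells was sequenced in 12 libraries of 50-base reads made with a stranded mRNA kit. The authors deposited whole-number counts of reads per gene, not normalized, made per the labels with HISAT2 and HTSeq (hg19, versions and annotation not given in the sources used here). The deposited DESeq2 tables hold the authors' own comparisons and were not used. Entries that name no gene (14.7% to 20.8% without a feature in experiment 1, 10.0% to 12.2% in experiment 2) were left out.

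Samples were grouped by their titles. Each experiment was fitted alone with edgeR 4.0.16 in R 4.3.3 (filterByExpr, TMM scaling, glmQLFit and glmQLFTest). P-values were adjusted by Benjamini-Hochberg over all genes tested (threshold 0.05). The difference between the siRNAs came from 1 model of 12 libraries. Intervals are 95% from the fit, and cover the spread of 3 libraries per group. GC content, lengths and coordinates came from GENCODE release 29 on GRCh38, matched by symbol (21257 by name, 1135 by another symbol, 1318 not), and may differ from the annotation behind the counts. For the GC offset, each library's log2 CPM (prior count 1) was smoothed over GC content by lowess with a span of 0.3.

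Named were called genes at a mean of 1 CPM or more, up to 8 per direction, the 10 genes with most CPM, HIST1H3E, genes called in opposite directions, the 8 of the polyadenylated list, up to 4 per other list, CENPA, H2AFX, H3F3B, SLBP, NPAT and CDK2. The members and lists were chosen with earlier results of these data known. DESeq2 1.42.0, other scalings and filters, a replicate block, lanes and leaving out each library were tried. On simulated data with the spread of experiment 1, 22 of 200 genes changed 2-fold among 13233 were recovered.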

Additional observations from a re-analysis of the deposited data

Results flagged for a closer look

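In each of 24 genes, the change with siMESH1-CDS differed from that with siMESH1-7002 in the model of 12 libraries, where 69.7% of all genes did. The values that follow are log2 differences, siMESH1-CDS minus siMESH1-7002. Among the cluster histones they were -2.98 for HIST1H1C, -1.51 for HIST1H2AC, 1.11 for HIST1H2BD, 1.83 for HIST1H2BK, 1.12 for HIST1H3E and 2.33 for HIST2H2BE. The values of -5.18 for HIST1H2BH, -5.27 for HIST1H4E and -4.35 for HIST4H4 come from genes with no read in siMESH1-CDS cells and are no bounds. Among the replacement histones they were 0.70 for CENPA, -1.46 for H2AFX, -0.88 for H2AFY, -1.28 for H2AFZ and -2.44 for H3F3C. In the machinery of cluster histone mRNA they were -0.70 for CCNE1, -1.31 for CCNE2, -1.39 for CDK2, -2.94 for LSM10 and -0.72 for NPAT. In cleavage and polyadenylation they were 0.59 for FIP1L1, 1.36 for NUDT21, 1.56 for PAPOLA and 0.86 for PCF11. HDDC3, the targeted gene, differed by -2.47. With the GC offset the differences of HDDC3 (-1.06, adjusted p = 0.0718, edgeR), CCNE1 (-0.22, adjusted p = 0.444) and H2AFX (0.29, adjusted p = 0.489) did not pass. The siRNA and the experiment cannot be told apart in these differences, since each siRNA was used in 1 experiment.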

How the results depend on the processing

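The counts of cluster histone genes called higher kept within 1.5 times under every alternative that was run (DESeq2, library size, DESeq2 size factors, filters, a threshold of 0.01, GC content, GC content and length, 1 model of 4 groups, lane, the replicate block and each left-out library). The 1 gene lower with siMESH1-CDS became 4 without a filter on low counts and 4 in 1 model of 4 groups, and 0 with at least 10 reads in every library (3 genes tested), with GC content and with GC content and length (each 0 at an unadjusted p under 0.05 too, and 1 by DESeq2). The 0 lower with siMESH1-7002 became 2 without the filter. The 9 genes that differed between the siRNAs became 2 with at least 10 reads in every library, where 2 were tested. The median log2 change of the cluster genes turned to -1.71 (siMESH1-CDS) and -0.04 (siMESH1-7002) without the filter, over fitted values that include genes at 0 and are no bounds. The difference of H2AFX between the siRNAs turned to 0.29 with GC content and 0.22 with GC content and length.

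Replacement histones called with siMESH1-CDS went from 10 to 6 at 0.01 and from 6 (without siMESH1-CDS replicate 1) to 11 with 1 library left out, and with siMESH1-7002 from 7 to 4 in 1 model. Machinery genes called with siMESH1-7002 went from 13 to 6 in 1 model. Cleavage and polyadenylation genes called with siMESH1-7002 went from 5 to 3 at 0.01, to 9 with GC content, to 9 with GC content and length, to 0 in 1 model (1 at an unadjusted p under 0.05, and 4 by DESeq2), and to 3 without siNT replicate 1 or 2 or siMESH1-7002 replicate 2 or 3. The causes were not tested, beyond the fewer genes tested under the stricter filter.

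The replicate block left 4 higher and 1 lower with siMESH1-CDS, 8 and 0 with siMESH1-7002 and 10 that differed. Same-numbered libraries correlated from -0.0475 to 0.224 in experiment 1 and -0.0755 to 0.0415 in experiment 2. These are correlations of deviations from means of 3 libraries, so they cannot decide whether the numbers pair the libraries. Scaling moved the median of all genes with siMESH1-CDS from -0.05 to -0.31 by library size and 0.16 with GC content, and GC content and length moved the calls of all genes with siMESH1-7002 from 3613 higher and 3622 lower to 4995 and 3332. Of the values for single genes under alternatives, 1552 kept their side of the threshold, 87 lost it, 20 gained it and 2 reversed. The 18 cluster genes with at least 1 read and at most 3 in every library were not called against siNT, even without the filter on low counts. A change in them could have been missed at this depth.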
